A study of Mus musculus with 13 samples.

Results

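Secretoglobins are small secreted proteins, and 7 of them were followed here through the development of the mouse submandibular gland. They were taken by gene symbol from the 23364 genes quantified in every sample. Scgb1b27, Scgb1b30, Scgb2b26 and Scgb2b27 belong to the androgen-binding protein type, while Scgb1a1, Scgb1c1 and Scgb3a1 are secretoglobins best known from the airway or nasal mucosa. The tables held 21 genes whose symbol starts with Scgb, and the other 14 are described only where their levels rose above 1 FPKM (fragments per kilobase of transcript and per 1000000 mapped reads, a level already divided by gene length and depth).

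Mouse androgen-binding protein is a saliva protein made of subunits joined in pairs. An alpha subunit, encoded by a Scgb1b gene, is linked by disulphide bonds to a beta or gamma subunit, encoded by a Scgb2b gene. Scgb1b27 encodes the classical alpha subunit, Scgb2b27 the beta subunit and Scgb2b26 the gamma subunit, and these dimers bind steroid hormones and coat the pelt of mice that groom with saliva. In the airway, by contrast, Scgb1a1 is the defining product of club cells and Scgb3a1 is made by secretory cells of the large airways.

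The study profiled whole submandibular glands of C57BL/6 mice by single-end RNA-seq at 6 time points, in 13 samples. These were 3 samples of embryonic day E14.5, 2 of E16.5 and 2 of E18.5 (the embryo stage, n = 7), 2 at postnatal day 5 (P5, the neonatal stage, n = 2), and 2 each at 4 weeks and 12 weeks of age (the adult stage, n = 4). The labels name no treatment or transgene. Embryonic glands were pooled from 3 animals at E14.5 and from 2 animals at E16.5 and at E18.5, the sex of embryos and P5 pups was not ascertained, and the adults were male, so that age and sex cannot be told apart between the adult and the earlier samples.

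The 4 androgen-binding type genes lie together on chromosome 7, within 157.8 kilobases of the mm9 assembly. Scgb2b26 (chr7:34728021-34730059, minus strand) and Scgb2b27 (chr7:34796951-34798961, minus strand) are read away from Scgb1b27 (chr7:34806502-34807900, plus strand) and Scgb1b30 (chr7:34880450-34885856, plus strand). The start sites of the beta gene Scgb2b27 and the alpha gene Scgb1b27 stand back to back, 7.54 kilobases apart. Of the airway type, Scgb1c1 is on the same chromosome but far off (chr7:148031464-148032667), Scgb3a1 is on chromosome 11 (chr11:49477112-49478620) and Scgb1a1 on chromosome 19 (chr19:9158126-9162448).

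Because these 4 genes changed together across the samples, the 250 bases before each start site are shown. The sequences are RefSeq's, from a promoter table of build GRCm38.p6 that holds 6 of the 7 members, and each was found once in mm9 without a difference, at chr7:34806250-34806499 for Scgb1b27, chr7:34880200-34880449 for Scgb1b30, chr7:34730005-34730254 for Scgb2b26 and chr7:34798962-34799211 for Scgb2b27. Each is written 5′ to 3′ on the strand of its gene, and the capitals mark the longest run of letters that both genes of a pair share.
Scgb1b27: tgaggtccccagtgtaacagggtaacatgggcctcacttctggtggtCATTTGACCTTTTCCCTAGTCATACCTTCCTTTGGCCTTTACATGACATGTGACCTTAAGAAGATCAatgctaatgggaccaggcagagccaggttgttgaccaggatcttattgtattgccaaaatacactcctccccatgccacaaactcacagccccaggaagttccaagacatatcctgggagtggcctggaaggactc
Scgb1b30: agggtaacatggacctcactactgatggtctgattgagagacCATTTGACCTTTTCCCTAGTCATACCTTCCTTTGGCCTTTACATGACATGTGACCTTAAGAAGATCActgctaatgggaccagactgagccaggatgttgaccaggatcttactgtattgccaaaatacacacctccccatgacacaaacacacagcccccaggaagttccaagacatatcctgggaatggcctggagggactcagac
Scgb2b26: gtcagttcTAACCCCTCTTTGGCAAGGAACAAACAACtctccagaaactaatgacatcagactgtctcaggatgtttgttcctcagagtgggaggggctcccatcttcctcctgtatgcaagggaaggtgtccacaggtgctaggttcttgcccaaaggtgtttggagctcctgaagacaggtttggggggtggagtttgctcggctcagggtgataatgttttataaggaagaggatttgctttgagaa
Scgb2b27: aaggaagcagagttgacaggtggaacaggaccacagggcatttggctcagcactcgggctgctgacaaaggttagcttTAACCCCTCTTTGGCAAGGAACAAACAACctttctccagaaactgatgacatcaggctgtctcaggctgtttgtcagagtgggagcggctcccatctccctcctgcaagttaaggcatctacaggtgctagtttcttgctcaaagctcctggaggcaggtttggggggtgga
The alpha-type promoters were 89.0% identical over their alignment and shared an unbroken run of 67 bases. The beta and gamma promoters were 80.8% identical, with a longest shared run of 29 bases that starts at -242 in Scgb2b26 and at -172 in Scgb2b27, counted from the start site. Alpha and beta-type promoters were 45.7% to 49.1% identical in alignments with many gaps. A search of both strands for the letters TATAAA found 1 match in the 4 windows, where 12.4% of all 32851 promoters in the table hold one. It was in Scgb2b26 at -29 to -24 on the strand opposite to the gene, so that the printed sequence reads TTTATA there. The windows of Scgb2b26 and Scgb2b27 are offset. The stretch of Scgb2b27 that would align with this part of Scgb2b26 lies beyond its window and was not searched. The letters AGAACA, one arm of the steroid hormone response element, were in none of the 4 windows and in 16.1% of promoters, and the full palindrome, AGAACA and TGTTCT with any 3 bases between, was in none of them and in 3 promoters of the table.

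The transcripts of these genes are close copies, which matters for short reads. The alpha mRNAs Scgb1b27 and Scgb1b30 were 89.9% identical, and the mRNAs of Scgb2b26 and Scgb2b27 were 83.2% identical. Of the 50-base stretches inside exons, the length of the reads, 2.56% of Scgb1b27, 2.31% of Scgb2b26, 3.90% of Scgb2b27 and 0 of 856 of Scgb1b30 recur elsewhere in mm9 letter for letter. With up to 2 mismatches allowed, the share was 40.0% for Scgb1b27, 37.7% for Scgb2b26, 31.3% for Scgb2b27 and 16.6% for Scgb1b30, and it was 0 for the 3 airway type genes. The exons searched hold 1005 bases for Scgb1b27, 1003 for Scgb1b30, 579 for Scgb2b26 and 1560 for Scgb2b27. The lengths behind their FPKM are 409, 491, 529 and 828 bases, so these shares need not be those of the exons counted. Reads that align to more than 1 place were discarded before counting. The levels of the androgen-binding type genes, and of low Scgb1b30 beside abundant Scgb1b27 above all, are therefore uncertain, by an amount that these shares do not measure.

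Depth, recovered from the steps between FPKM values, was 5817293 and 7957919 reads on genes at 4 weeks and 17345306 to 48314163 in the other samples. The acinar markers Aqp5 and Bhlha15 were measured in all 13 samples, but at 0.5685 and 0.609 FPKM in E14.5 replicate 1 against 5.98 and 9.13 FPKM (Aqp5) and 4.39 and 4.97 FPKM (Bhlha15) in the other E14.5 samples. That sample stands apart in this respect, and leaving it out changed no call of a member.

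Scgb1b27, the alpha subunit, had the highest FPKM of all genes in the adult gland. Its level was 46.9, 47.8 and 47.3 FPKM in the 3 E14.5 samples, 3.24 and 3.01 FPKM in the E16.5 pair, then 97.0 and 77.6 FPKM by E18.5. The P5 samples had 9645 and 9534 FPKM, the 4-week samples 164081 and 176275, and the 12-week samples 83384 and 82135. No time point overlapped another, and the replicates of each lay close together. By FPKM it ranked first of all genes in each of the 4 adult samples, seventh in both P5 samples, and between 670 and 10993 in the embryos. Its FPKM rest on a length of 409 bases, whereas its mRNA model has 762 bases, and a longer length would lower level and rank. Prol1, another salivary gene, had 61536 and 49777 FPKM at 12 weeks.

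Scgb1b30, the second alpha-type gene, stayed far below Scgb1b27 throughout. It was listed at 0, 0.402 and 0.0762 FPKM in E14.5 samples, 0.0562 and 0.218 in the E16.5 pair, and 0.352 and 0.439 in the E18.5 pair, values that rest on 0 to 7 reads per sample. It was then 21.0 and 32.4 FPKM at P5, 856 and 1205 at 4 weeks, and 375 and 203 at 12 weeks. Adult samples were all above P5 samples and these all above embryos, while the embryonic time points overlapped, apart from E16.5 and E18.5. In the adult Scgb1b27 exceeded it 146- to 405-fold.

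Scgb2b27, the beta subunit, measured 16.47, 14.8 and 18.2 FPKM in E14.5 samples, 3.56 and 4.27 in the E16.5 pair, and 60.02 and 65.7 in the E18.5 pair. It reached 4617 and 4638 FPKM at P5, 53139 and 58631 at 4 weeks, and 41084 and 31940 at 12 weeks. The order of its time points was that of Scgb1b27, without overlap between any of them.

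Scgb2b26, the gamma subunit, followed at lower levels. It was 3.73, 2.76 and 5.09 FPKM in E14.5 samples, 1.09 and 1.57 in the E16.5 pair, and 19.2 and 12.99 in the E18.5 pair. It then rose to 3498 and 4242 FPKM at P5 and 24906 and 28081 at 4 weeks, and stood at 9619 and 5463 at 12 weeks. The 12-week samples differed from each other more for this gene than for Scgb1b27 or Scgb2b27, yet both lay between the P5 and the 4-week values.

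**Figure D1:**
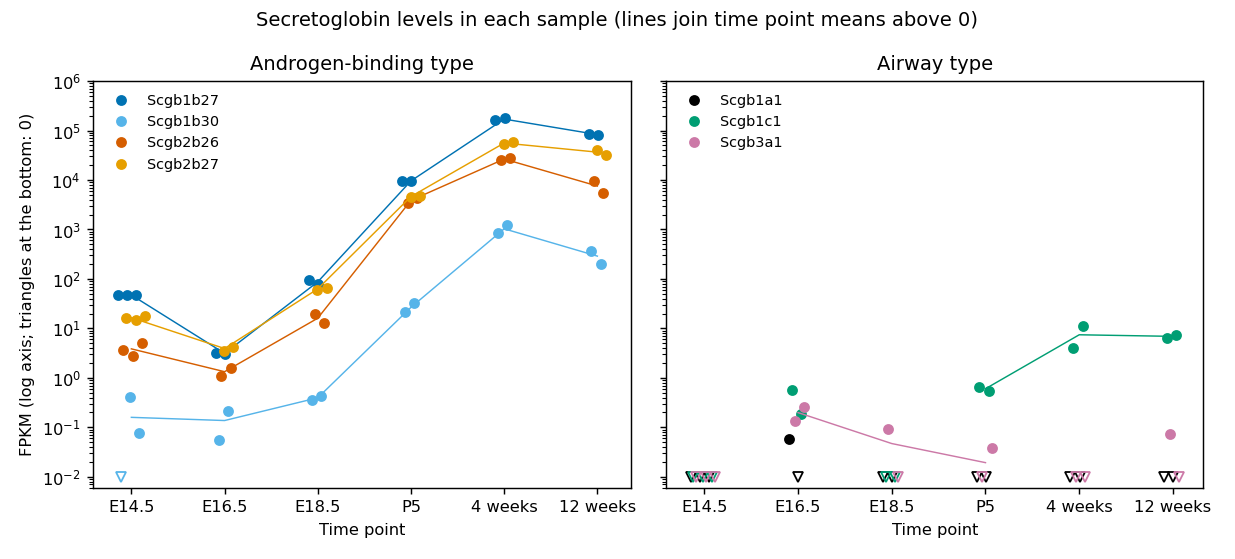
FPKM of each secretoglobin (log axis) in every sample at the 6 time points, with the androgen-binding type on the left and the airway type on the right; points are samples, lines join means above 0 and open triangles mark samples at 0. The 4 genes on the left climb from E16.5 to 4 weeks and are lower at 12 weeks, while on the right only Scgb1c1 passes 1 FPKM, at 3.93 to 10.9 FPKM in the adult.

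Summed over the family, the secretoglobins took up to 30.3% of all FPKM. They made up 0.0138% to 0.0153% of all FPKM in E14.5 glands, 0.00172% and 0.00224% in those of E16.5, and 0.0280% and 0.0351% in those of E18.5. The share was 3.37% and 3.41% at P5, 29.3% and 30.3% at 4 weeks, and 18.55% and 16.3% at 12 weeks. Scgb1b27 alone took 19.8% and 20.2% at 4 weeks, then 11.5% and 11.2% at 12 weeks. These are short transcripts, so that their share of reads was smaller, 12.5% and 13.6% at 4 weeks and 7.34% and 6.30% at 12 weeks, with the same order of time points. A share of FPKM depends on the gene lengths used, and a share of reads does not. In whole-gland RNA, more cells of a type and more RNA per cell cannot be told apart.

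**Figure D2:**
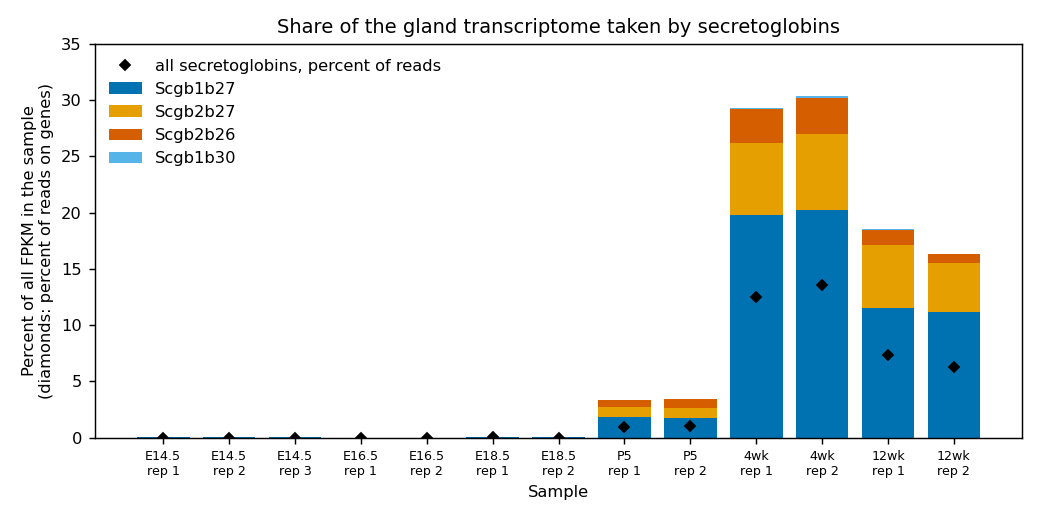
Percent of all FPKM in each of the 13 samples taken by the 4 androgen-binding type genes (stacked bars from 0), with the percent of reads on genes from all secretoglobins as diamonds. The bars stand at 3.37% and 3.41% at P5, near 30% at 4 weeks (29.3% and 30.3%) and at 18.55% and 16.3% at 12 weeks.

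The first comparison asked how the stages differ, with limma on log2(FPKM + 1). A gene was called when it changed at least 2-fold (1 on the log2 scale) with a Benjamini-Hochberg adjusted p below 0.1, and only the 14650 genes that reached 1 FPKM in at least 1 sample were tested. Of the 7 members 5 were tested. Scgb1a1 and Scgb3a1 never reached that level, and Scgb1b30 and Scgb1c1 passed only through the samples in which they were high, so that they had to differ, and counts that include them are descriptions.

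All 5 tested members were higher in adult than in embryonic glands, where 5.58% of all genes tested were called higher. Scgb1b27 averaged 126469 ± 50719 FPKM in the adult (SD, n = 4) and 46.1 ± 34.8 in the embryo (SD, n = 7), a log2 fold change of 12.03 ± 0.83 (SE, limma adjusted p = 3.8e-08). Scgb2b27 rose by 11.32 ± 0.65 on the log2 scale and Scgb2b26 by 11.28 ± 0.61 (limma adjusted p = 7.4e-09 and 4.7e-09), and the difference of Scgb1b30 was 8.78 ± 0.37. The median of the androgen-binding type was 11.30, against -0.75 for all genes tested. Rescaled by medians of ratios, the overall median moved to -0.05 and the background to 13.8% called higher, and the same 5 members were called. The rescaled level of Scgb1b27 was 257626 FPKM at 4 weeks and 126082 FPKM at 12 weeks, more than 1.5 times the deposited means.

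The embryonic mean hides a wide spread between its time points. Against the E16.5 samples alone, an alternative chosen after seeing the data, the log2 difference of Scgb1b27 from the adult was 14.81, that of Scgb2b27 13.16 and that of Scgb2b26 12.54, and 5 members were again called.

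On the log2 scale most of the rise of Scgb1b27, Scgb2b27 and Scgb2b26 had taken place by P5. From embryo to P5, 4 of the 5 tested members were called higher, against 4.14% of all genes tested (5.57% after rescaling). Scgb2b26 rose most, by 9.44 ± 0.78 on the log2 scale (limma adjusted p = 2.3e-05), ahead of Scgb1b27 with 8.40 ± 1.07 and Scgb2b27 with 8.04 ± 0.83, although their 95% confidence intervals overlap. The difference of Scgb1b30 was 4.49 ± 0.47. At P5 the gamma transcript stood at 22.7% of its adult mean, the beta transcript at 10.02%, Scgb1b27 at 7.58% and Scgb1b30 at 4.04%. From E18.5 to P5 alone the same 4 were higher (2.07% of genes, 2.38% after rescaling), with Scgb2b26 changing by 7.84, Scgb1b27 by 6.77, Scgb2b27 by 6.18 and Scgb1b30 by 4.28 on the log2 scale.

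From P5 to the adult stage the 5 tested members were higher again, against 2.31% of all genes tested (6.07% after rescaling). Scgb1b30 rose by 4.29 ± 0.51 on the log2 scale, Scgb1b27 by 3.63 ± 1.15 and Scgb2b27 by 3.28 ± 0.89. The call of Scgb2b26 (1.85 ± 0.84, limma adjusted p = 0.087) was lost under 9 alternatives, among them leaving out P5 replicate 1 (adjusted p = 0.28), P5 replicate 2 (0.20), 4wk replicate 1 (0.16) or 4wk replicate 2 (0.18). Without P5 replicate 1 Scgb1b27 was not called either (adjusted p = 0.11), leaving 3 members called. Between P5 and 4 weeks, where the adult ages are not mixed, the rise was clear for all 5 members (2.19% of genes, 6.4% after rescaling). Scgb1b30 changed by 5.23 ± 0.29, Scgb1b27 by 4.15 ± 0.17, Scgb2b27 by 3.59 ± 0.17 and Scgb2b26 by 2.78 ± 0.29 on the log2 scale, with limma adjusted p values from 2.6e-08 to 2.7e-05.

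Between 4 and 12 weeks the androgen-binding type declined. Scgb1b27 fell by 1.04 ± 0.17 on the log2 scale (limma adjusted p = 0.0035), Scgb1b30 fell by 1.88 ± 0.29 (adjusted p = 0.0024) and Scgb2b26 fell by 1.87 ± 0.29 (adjusted p = 0.0022), so that 3 of the 5 tested members were called lower, against 2.48% of all genes tested. Mean levels at 4 weeks were 2.06 times those at 12 weeks for Scgb1b27, 3.57 times for Scgb1b30 and 3.51 times for Scgb2b26. Scgb2b27, at 1.53 times, had a change of -0.62 ± 0.17 (adjusted p = 0.040) that did not reach the 2-fold limit. All 4 genes had lower values in both 12-week samples than in either 4-week sample. The spread behind these tests is shared by the 6 time points, and with only the 4 samples of these ages in the fit none of the members was called, 2 having an unadjusted p below 0.05. Without 4wk replicate 2 the change of Scgb1b27 was -0.99, just inside the 2-fold limit.

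Products of the granular convoluted ducts, the androgen-dependent ducts of the male mouse gland, went the other way over the same 8 weeks. Of 14 tested genes on that list 13 were higher at 12 than at 4 weeks, where 2.68% of all genes were, and the list's median log2 change was 1.56, against 0.00 for all genes. Egf (epidermal growth factor) changed by 1.59 ± 0.25 and the kallikrein Klk1b9 by 1.45 ± 0.17. Summed, the list measured 35509 and 58413 FPKM at 4 weeks and 132465 and 143726 FPKM at 12 weeks, at the same time as the androgen-binding secretoglobins went from 242982 and 264193 FPKM to 134461 and 119740 FPKM. FPKM is relative to all reads of a sample, and the part this has in either change was not tested beyond the rescaling, which left the same 3 members called. Other secreted salivary proteins were divided between these ages. Of 14 tested, 4 were called higher at 12 weeks and 3 lower, against 2.68% and 2.48% of all genes, and their median log2 change was -0.63.

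**Figure D3:**
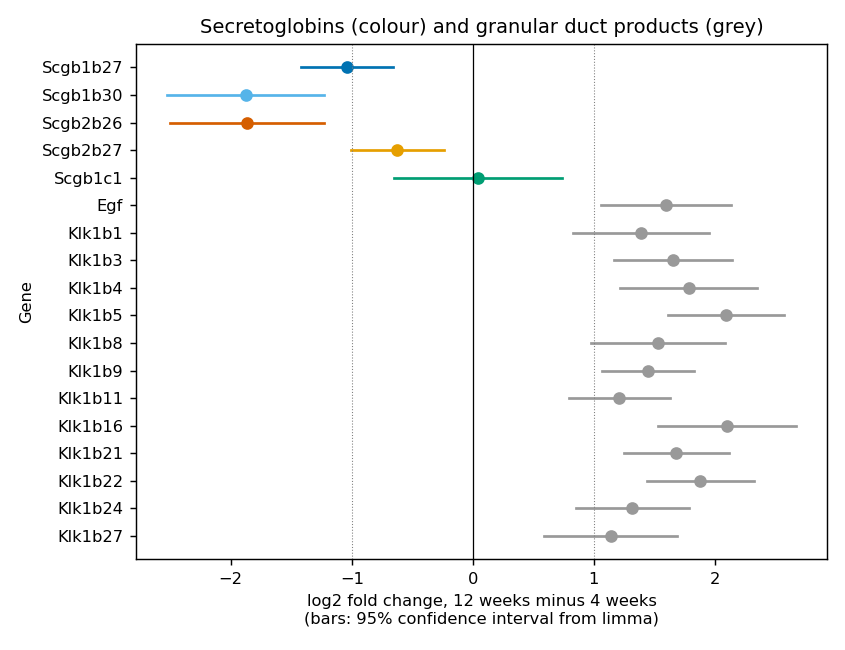
Log2 fold change from 4 to 12 weeks (horizontal axis, points) with 95% confidence intervals from limma (bars) for the 5 tested secretoglobins in colour and, in grey, the 13 granular duct products that average at least 100 FPKM in the adult; dotted lines mark a 2-fold change. Scgb1b27, Scgb1b30, Scgb2b26 and Scgb2b27 lie left of 0, Scgb1c1 at 0.04, and the grey genes lie between 1.14 and 2.10. The tested gene not drawn, Klk1b26, averages 1.11 FPKM in the adult and had a change of 0.34 (95% confidence interval -0.46 to 1.14).

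In the embryo the measured levels of the androgen-binding type did not rise steadily. Whether adult reads add to the E14.5 values was not tested. From E14.5 to E16.5, Scgb1b27 fell by 3.55 ± 0.16 on the log2 scale (limma adjusted p = 2.9e-07), Scgb2b27 fell by 1.83 ± 0.16 (adjusted p = 4.5e-05) and Scgb2b26 fell by 1.04 ± 0.26 (adjusted p = 0.021). These 3 of the 5 tested members were called lower, against 0.983% of all genes tested. The call of Scgb2b26 sat at the 2-fold limit, and its change was -0.86 without E14.5 replicate 3, -0.89 without E16.5 replicate 1 and -0.95 after rescaling. From E16.5 to E18.5 the same 3 genes rose (1.09% of genes, 1.32% after rescaling), Scgb1b27 by 4.41 ± 0.17, Scgb2b27 by 3.70 ± 0.17 and Scgb2b26 by 2.86 ± 0.29 on the log2 scale. The E16.5 samples also held the most skeletal muscle RNA. The 6 muscle markers summed to 158 to 399 FPKM at E14.5, 895 and 1115 FPKM at E16.5 and 5.41 and 39.9 FPKM at E18.5. Of the 5 tested, 2 were called higher from E14.5 to E16.5 (4.17% of all genes) and 4 lower from E16.5 to E18.5 (1.85% of all genes). Among these 4 were Acta1 with a change of -6.13 ± 0.88 and Ckm with -5.12 ± 0.47 on the log2 scale. The part of this muscle RNA in the changes of the secretoglobins was not tested.

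Genes that are abundant in the adult gland were divided in their direction from E14.5 to E16.5. Klk1b22, a granular duct kallikrein, measured 6.10, 6.56 and 6.13 FPKM at E14.5, 0 in both E16.5 samples, 4.11 and 2.93 at E18.5 and 0.544 and 0.326 at P5, before 4155 to 20687 in the adult. Of the 14 tested granular duct products 10 were called lower at E16.5 than at E14.5 (0.983% of all genes), and 9 were called higher at E18.5 than at E16.5 (1.09% of all genes). Their summed level was 45.2 to 47.9 FPKM in E14.5 samples, 5.41 and 6.92 in the E16.5 pair, and 50.84 and 50.85 in the E18.5 pair. Of the 10 other secreted salivary proteins that average at least 100 FPKM in the adult, 3 had every E14.5 sample above both E16.5 samples. Bpifa2 went from a mean of 10.8 to 960 FPKM and Pip from 13.8 to 95.5 FPKM. Beyond the secretoglobins, 35 genes had at least 1000 FPKM at 12 weeks, and in 18 of them every E14.5 sample was above both E16.5 samples, while in 8 every E14.5 sample was below both. The share of all genes separated in these ways is not given here, so such counts are descriptions. The 4 androgen-binding type genes stood at 0.0451% (Scgb2b27), 0.0512% (Scgb2b26), 0.0551% (Scgb1b30) and 0.0572% (Scgb1b27) of their 12-week means at E14.5. Over the 13 granular duct products reported here that average at least 100 FPKM in the adult the range was 0.0289% to 0.0462%, with a median of 0.0339%. Amy1, salivary amylase, stood at 0.0405%, and Pip and Bpifa2, which rose to E16.5, at 0.0367% and 0.0574%. The 10 other secreted salivary proteins, Amy1, Pip and Bpifa2 among them, ranged from 0.0367% to 29.4%, with a median of 0.0841%. Scgb1b27 was also nearly equal in the 3 E14.5 samples, although replicate 1 differed from the others more than 10-fold in Aqp5. Whether reads from an adult gland are among those of the E14.5 samples was not tested.

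**Figure D4:**
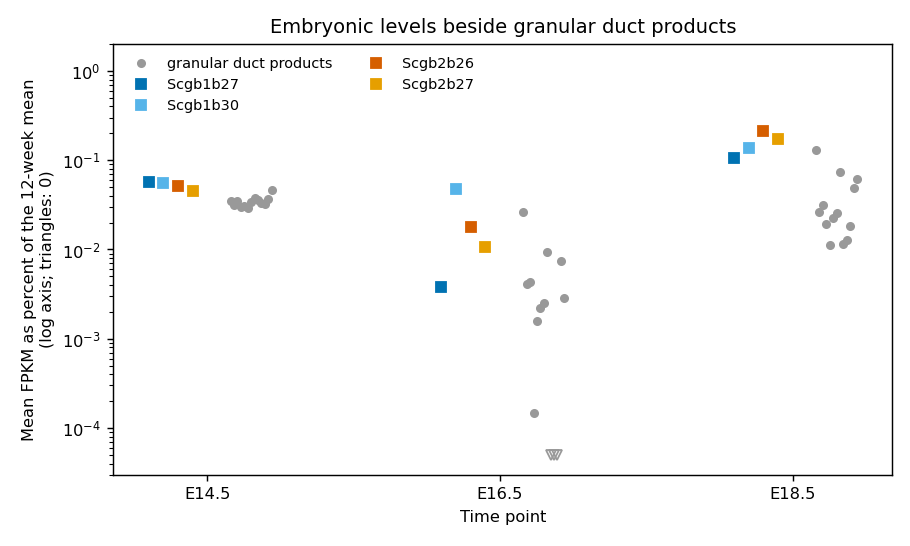
Mean FPKM of the 3 embryonic time points as percent of the 12-week mean (log axis) for the 4 androgen-binding type genes (coloured squares) and 13 granular duct products (grey circles, triangles at 0). At E14.5 the squares stand between 0.0451% and 0.0572%, and at E18.5 between 0.105% and 0.213%, where the median of the grey points is 0.0256%.

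At E18.5 the secretoglobins were nearer to their 12-week levels than most granular duct products. They stood at 0.105% (Scgb1b27), 0.137% (Scgb1b30), 0.172% (Scgb2b27) and 0.213% (Scgb2b26) of their 12-week means, while the same 13 granular duct products had a median of 0.0256% and a highest value of 0.129% (Egf). This depends on the reference, since the secretoglobins were lower and these products higher at 12 than at 4 weeks. As a share of the adult means the E18.5 ranges overlapped, 0.0600% to 0.136% for the secretoglobins and 0.0179% to 0.192% for the products (median 0.0372%). Shares of the 4-week means were not compared. At P5 these 13 were at 0.00350% to 0.323% of their adult means, below the lowest androgen-binding member at 4.04%.

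The ratio between subunit transcripts varied with time point. Whether reads from an adult gland enter the E14.5 ratios was not tested. The ratio of beta to alpha transcripts, Scgb2b27 to Scgb1b27 within a sample, was 0.309 to 0.384 in E14.5 samples, 1.101 and 1.42 in the E16.5 pair, 0.619 and 0.846 in the E18.5 pair, 0.479 and 0.486 in the P5 pair, 0.324 and 0.333 at 4 weeks, and 0.493 and 0.389 at 12 weeks. Only at E16.5 did the beta FPKM exceed the alpha FPKM. These ratios and that order depend on the lengths behind FPKM, 828 bases for Scgb2b27 and 409 for Scgb1b27. Their mRNA models have 567 and 762 bases. In reads, Scgb2b27 also exceeded Scgb1b27 at E18.5, at 862 to 688 and 1765 to 1030. Changes of a ratio between time points do not depend on these lengths. The ratio of gamma to alpha transcripts, Scgb2b26 to Scgb1b27, was 0.0577 to 0.108 in E14.5 samples, 0.338 and 0.521 in the E16.5 pair, 0.167 and 0.198 in the E18.5 pair, 0.363 and 0.445 in the P5 pair, 0.152 and 0.159 at 4 weeks, and 0.115 and 0.0665 at 12 weeks. Beta and gamma transcripts together were 0.366 to 0.492 times the alpha transcript at E14.5, 1.44 and 1.94 times at E16.5, 0.817 and 1.01 times at E18.5, 0.841 and 0.931 times at P5, and 0.455 to 0.608 times in the adult.

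**Figure D5:**
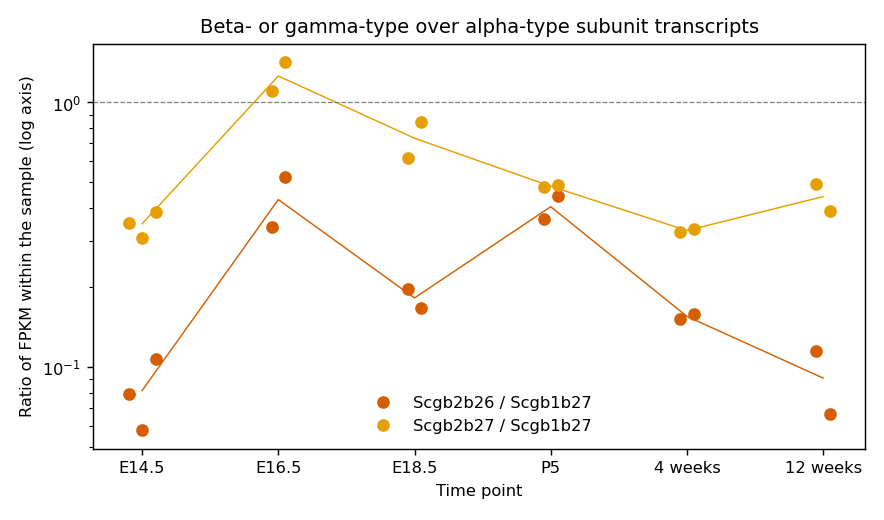
Ratio of FPKM within each sample (log axis) of the beta gene Scgb2b27 and the gamma gene Scgb2b26 to the alpha gene Scgb1b27 at the 6 time points; points are samples and lines join means. The beta ratio peaks at 1.101 and 1.42 at E16.5, and the gamma ratio is highest at E16.5 (0.338 and 0.521) and P5 (0.363 and 0.445).

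An exact permutation test over samples (two-sided, 330 labelings) compared the log2 ratios of 5 member pairs between adult (n = 4) and embryo (n = 7), with a pseudocount of 1 FPKM. The ratio of Scgb2b27 to Scgb1b27 differed by -0.71 on the log2 scale, adult minus embryo (exact p = 0.14, adjusted over 5 pairs 0.17), and that of Scgb2b26 to Scgb1b27 by -0.75 (exact p = 0.28, adjusted 0.28), so that neither passed the test and the groups overlapped. The ratios of Scgb1a1, Scgb1c1 and Scgb3a1 to Scgb1b27 differed by -12.04, -9.20 and -12.10, each at the smallest exact p this permutation can give, 0.0061 (adjusted 0.010), without overlap. These airway type ratios all restate the rise of Scgb1b27, beside Scgb1a1 and Scgb3a1 near 0 and a smaller rise of Scgb1c1 (2.83 on the log2 scale). They are descriptions, and their p-values add nothing to that rise.

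The airway type was nearly absent at every age. Scgb1a1, the club cell product, had 1 read in all 13 samples, in E16.5 replicate 1 (0.0589 FPKM). In the adult it had 0 of 64027588 reads on genes, where a limit of 3 reads would be 0.0469 RPM (reads per 1000000 reads on genes) and the upper bound of the exact 95% interval is 0.0576 RPM, both for counting error only. Scgb3a1 had 12 reads in all, 9 of them at E16.5 (0.135 and 0.262 FPKM), and 1 or 0 in each other sample. In the 4-week samples, the shallowest, 3 reads of these genes would correspond to 0.615 to 1.102 FPKM.

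Scgb1c1 was the exception among the airway type. It was at 0 in all 3 E14.5 and both E18.5 samples, at 0.568 and 0.184 FPKM in the E16.5 pair (9 and 3 reads), and at 0.663 and 0.543 at P5. In the adult it was 3.93 and 10.9 FPKM at 4 weeks (10 and 38 reads) and 6.40 and 7.40 at 12 weeks (61 and 92 reads). Pooled, 201 adult reads were 3.14 RPM (exact Clopper-Pearson 95% interval 2.72 to 3.60), against 0.0616 RPM (0.0318 to 0.108) from 12 embryonic reads. The log2 difference between adult and embryo was 2.83 ± 0.21 and that between adult and P5 2.28 ± 0.29, given as a description since only its adult samples reached 1 FPKM. From 4 to 12 weeks the difference was 0.04, with a 95% confidence interval of -0.65 to 0.73, while the androgen-binding type was lower, a contrast that was not itself tested. Its adult mean of 7.17 FPKM was below the 660 FPKM of Scgb1b30.

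Among the other 14 family genes none passed 3.50 FPKM. The genes that exceeded 1 FPKM somewhere were Scgb1b3, Scgb2b2, Scgb2b3, Scgb2b7, Scgb2b19, Scgb2b23-ps and Scgb2b24. Scgb2b24 was highest, from 0.342 to 3.50 FPKM in the adult and 0 in all embryos. Scgb2b7 was highest at P5 (1.16 and 1.24 FPKM). These genes share sequence with the abundant members, and misplaced reads from those were not tested.

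The list of 5-alpha reductases, which make dihydrotestosterone, and steroid response genes had 7 tested genes. From embryo to adult 4 of them were called lower, where 38.0% of all genes were, and 0 higher. After rescaling 0 were lower and 1 higher, against 14.7% of all genes lower and 13.8% higher, so that those 4 carry no direction of their own. Fkbp5, a classical target of steroid receptors, was the 1 gene of this list called higher from P5 to the adult stage (2.01 ± 0.31). In that comparison 2 were called lower, Srd5a1 (-1.16) and Foxa1 (-1.13), and 0 after rescaling, against 20.8% and 8.56% of all genes. Fkbp5 was lowest at P5 (mean 7.02 FPKM), and its adult minus embryo change of 0.87 was not called. It was called higher again from 4 to 12 weeks (1.04 ± 0.13), when the androgen-binding type fell, and a link between these was not tested. Srd5a2 was at 0 in 12 of 13 samples.

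Most defining markers of airway cells were near 0, as Scgb1a1 was. On the list of 12 club and goblet cell genes only 4 reached 1 FPKM. The mucins Muc5b and Muc5ac, the surfactant gene Sftpb, Bpifa1, Bpifb1, Reg3g, Nkx2-1 and Scgb3a2 stayed below that level in all 13 samples. Cyp2f2, a cytochrome abundant in club cells, and Cldn10, a claudin that salivary glands also express, were the exceptions, at 285 to 411 FPKM and 139 to 243 FPKM in the adult, while Sftpd and Lypd2 reached at most 1.86 and 3.59 FPKM. Cyp2f2 and Cldn10 were called higher at E16.5 than at E14.5 (4.17% of all genes), by 2.28 ± 0.34 and 2.92 ± 0.66 on the log2 scale, the time at which the androgen-binding type went down.

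Across the 13 samples, Pearson correlations of log2(FPKM + 1) between the 4 androgen-binding members were 0.960 to 0.995, as a description over samples that share age groups. Outside the family, the genes most like Scgb1b27 were 2310057J18Rik (r = 0.995), Car6 (0.989), A630073D07Rik (0.973), Slc17a5 (0.972) and Mup5 (0.969). Car6, the secreted carbonic anhydrase of saliva, 2310057J18Rik and A630073D07Rik were also among the 5 genes most like Scgb2b27 and most like Scgb2b26. Mup5, a major urinary protein, averaged 1772 FPKM at 4 weeks and 194 at 12 weeks, and was among the 5 for Scgb2b26 as well (0.985). Among the genes most like Scgb1b30 were Wdr72, Slc22a3, Fbp2 and Cwh43 (0.984 to 0.990), and those most like Scgb1c1 were 2210408F21Rik, Chst13, Itgbl1, Fa2h and the kallikrein pseudogene Klk1b7-ps (0.969 to 0.986).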

How the data were processed

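Submandibular gland RNA of 13 samples was sequenced as single-end 50-base reads. The authors aligned to mm9 with TopHat2 2.0.13 and Bowtie2 2.2.6, counted reads per gene with featureCounts, discarding reads that align to more than 1 place or gene, and deposited FPKM values made with DESeq2 1.10.1. The methods name median normalization, whereas the deposited FPKM behave as if scaled to each sample's total. Samples were grouped by the labelled age. Depth and reads per secretoglobin were recovered as the values that make FPKM whole reads (within 0.02 of a read), 5817293 to 48314163 reads on genes per sample, and no count model was fitted. limma 3.58.1 (R 4.3.3) was fitted to log2(FPKM + 1) of 14650 genes with at least 1 FPKM in a sample, over all 13 samples, by stage or by time point. It was tested on simulated data. The call needed a change of 1 on the log2 scale and a Benjamini-Hochberg p below 0.1. p-values measure only the spread between these samples, and intervals on reads cover counting error only.

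The members and gene lists were chosen with earlier results of these data known, and some genes of the lists and of the likeness ranking are not reported here. All 7 members are named with every value, other family genes where they pass 1 FPKM, the 5 genes most correlated with each tested member, and genes of the lists. Median-of-ratios factors, a pseudocount of 0.1, other filters, a replicate block, fits on fewer samples and Spearman correlation were tried as alternatives. Loci are from GENCODE vM1. No replicate pair differed by as little as sampling noise (chi-square per degree of freedom 4.25 to 126.3). No sequencing batch is given in the sources used here.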

Additional observations from a re-analysis of the deposited data

Results flagged for a closer look

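Of 13 groups of embryo or adult samples tested for a sample far from the rest of its group, 3 had one, and all 3 concern airway type genes with few reads. The rule flags every group in which only 1 sample is above 0, so the flags of Scgb1a1 and Scgb3a1 were fixed by 1 read each. No rate expected by chance applies to such low counts. For Scgb1a1, E16.5 replicate 1 stood apart from the other embryos at 0.0589 FPKM, which is 1 read, with the others at 0. For Scgb1c1, the same sample stood apart at 0.568 FPKM (9 reads), the next embryo having 0.184 FPKM. For Scgb3a1, 12-week replicate 1 was the only adult sample above 0, at 0.0748 FPKM (1 read).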

How the results depend on the processing

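Of 850 member differences under alternatives, 828 kept their side of the threshold, 18 lost a call and 4 gained one. The differences that lost or gained a call kept their direction. Changes of direction in differences that were called in neither fit were not counted. The 4 gained calls were of Scgb1c1 with a pseudocount of 0.1 (log2 changes of 2.201 from embryo to P5, 2.12 from E14.5 to E16.5, -2.12 from E16.5 to E18.5 and 2.81 from E18.5 to P5), values that rest on 14 or fewer reads per sample. With only the 2 groups compared in the fit, 0 of 5 tested members were called by limma from 4 to 12 weeks instead of 3 (2 with an unadjusted p below 0.05), and 244 instead of 755 of all genes, in a fit with fewer samples. With a pseudocount of 0.1 that count was 1658, and the counts of all genes rose from 3385 to 5320 (P5 to adult), 3556 to 5767 (P5 to 4 weeks), 755 to 1183 (E14.5 to E16.5) and 738 to 1163 (E18.5 to P5). Rescaling lowered them from 6385 to 4167 (embryo to adult), 3385 to 2137 and 3556 to 2213, and raised the adult mean levels of the androgen-binding type to about 1.5 times, for Scgb1b30 to 1576 FPKM at 4 weeks and 435.6 at 12 weeks. The alternative with E16.5 as the only embryonic time point, chosen after seeing the data, changed no call. Leaving out 1 sample at a time gave 3 to 5 members from P5 to adult, 2 to 3 from 4 to 12 weeks, 2 to 3 from E14.5 to E16.5, and no other count than the reported one elsewhere. Where 1 sample of a time point remained, it was assumed to vary like the other groups. Same-numbered samples of different groups did not deviate together (mean correlation -0.016 over 30 pairs, from -0.35 to 0.27), so the numbers pair nothing. With the replicate number as a block, 4 instead of 5 members were called from P5 to adult and 2 instead of 3 from E14.5 to E16.5, Scgb2b26 being lost each time, while the count stayed at 5 (adult against embryo), 4 (P5 against embryo), 3 (E18.5 against E16.5), 4 (P5 against E18.5), 5 (4 weeks against P5) and 3 (12 against 4 weeks). The genes most like a member were less stable. With Spearman's rank, 0 to 3 of the 5 remained, and after rescaling 2 to 4. Depth limits the airway type most, since 3 reads at 4 weeks are worth up to 1.18 FPKM.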
